A study of Mus musculus with 12 samples.

Results

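The hippocampus of rTg4510 mice was compared with that of littermate controls by sequencing polyadenylated RNA. Of the 12 libraries of the study, the 8 labelled rTg4510 (4) or littermate controls (4) form the comparison, and all genes of the count table were examined. Each of these groups has 2 libraries labelled female and 2 labelled male. The other 4 libraries, from rTg4510 mice given the reverse transcriptase inhibitor 3TC, shared the fit, and so the estimate of spread behind each SE and p, but not the group means compared. No treatment is named for either of the compared groups, and the sources used here give neither age nor strain background nor the genotype of the littermates.

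The rTg4510 mouse is a model of tauopathy, the group of brain diseases in which the microtubule-binding protein tau aggregates inside neurons. It carries a mutant human tau transgene that is switched on by another transgene, the activator tTA, which the Camk2a promoter drives in forebrain excitatory neurons. The tau transgene sits in a vector made from the mouse prion protein gene Prnp, and both transgenes are known to disturb mouse genes where they integrated. The comparison is therefore one of lines: an effect of tau and an effect of the insertions cannot be told apart in it. In mice of this kind the aging forebrain is known for loss of neurons and for activated microglia, the resident macrophages of the brain, and reactive astrocytes.

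Library totals were 29732904 to 36112922 counts in rTg4510 and 27286787 to 58173678 in littermates. Libraries are named below by the labelled sex letter and number, and values per library follow the order F2, F3, M1 and M3 for rTg4510 and F1, F3, M2 and M3 for littermates. The labelled hippocampus was present in all 8. Summed markers of dentate granule neurons stood at 688 to 891 CPM (counts scaled to the normalised library total) in rTg4510 and 909 to 1135 in littermates, those of CA1 pyramidal neurons at 678 to 989 in rTg4510 and 690 to 952 in littermates, and those of CA3 at 494 to 654 in rTg4510 and 629 to 688 in littermates. The sex-linked genes Xist and Ddx3y went against the labels of littermates F3 and M3, so no term for sex was used. The choroid plexus transcript Ttr reached 3907 CPM in rTg4510 M1 and 3404 and 1871 CPM in littermates F1 and F3, against 16.3 to 129 CPM in the other 5. The library rTg4510 F3 had the lowest scores of the 8 for myelin, dentate (-1.17), CA1 (-0.77) and CA3 (-0.70) genes. Its striatal and neocortical neuron scores were the highest. Its summed dentate and CA1 markers (830 and 870 CPM) still lay inside the range of the other rTg4510 libraries. Littermate M2 had a high myelin and neocortical and a low CA1 score. Results are therefore also given without the libraries left out for neighbouring-tissue markers (rTg4510 F3, littermate M2 and 1 treated library) or without the 3 highest in Ttr. Among the 8, rTg4510 F3 and littermate M2 had the highest neocortical scores (0.785 and 0.66). Kept libraries also scored high for such markers, with littermate F1 at 1.02 (thalamic) and 0.464 (striatal) and rTg4510 M1 at 0.594 (striatal). The first of these fits therefore still holds neighbouring-tissue markers. The labels do not say whether the libraries are from different animals, and p-values therefore speak only of the spread among these libraries.

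Of 16618 genes tested, 5 differed between rTg4510 and littermates at an adjusted p under 0.05 (0.0301% of genes; edgeR quasi-likelihood test, Benjamini-Hochberg). Of these, 2 rose (0.012%) and 3 fell (0.0181%). Prnp (chr2:131909928-131938429, mm10) encodes the prion protein, a surface glycoprotein of neurons. It stood at 2656, 2249, 2513 and 2260 CPM in rTg4510, against 774, 742, 685 and 785 CPM in littermates. Every rTg4510 library was far above every littermate library. The log2 fold change was 1.70 ± 0.16 (SE), with an adjusted p of 0.00169 (edgeR). The vector of the tau transgene is made from this gene, and whether reads of the vector were counted for Prnp was not tested. Slc35f1 (chr10:52690533-53111622) belongs to a family of nucleotide-sugar and related transporters. It stood at 100.5, 75.2, 103 and 116 CPM in rTg4510, against 44.8, 46.1, 48.0 and 42.7 CPM in littermates. The groups did not overlap, although rTg4510 F3 lay below the others of its group. The log2 fold change was 1.12 ± 0.11 (adjusted p = 0.00181, edgeR).

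The 3 genes that fell lie close together on distal chromosome 12, where the activator transgene of this line is known to have integrated. Wdr60 (chr12:116206262-116263022), a subunit of the dynein motor that carries cargo inside cilia, stood at 15.3, 14.3, 14.9 and 15.4 CPM in rTg4510, against 27.4, 28.5, 27.6 and 25.3 CPM in littermates (log2 fold change -0.86 ± 0.10, adjusted p = 0.00697, edgeR). Esyt2 (chr12:116281196-116391050) holds endoplasmic reticulum and plasma membrane close together. Its levels were 29.4, 29.5, 28.3 and 26.3 CPM in rTg4510, against 56.9, 54.0, 47.6 and 60.9 CPM in littermates (-0.95 ± 0.11, adjusted p = 0.00697). Ptprn2 (chr12:116485720-117276849), a phosphatase-like protein of dense-core vesicles, stood at 257, 305, 258 and 268 CPM in rTg4510, against 422, 426, 369 and 441 CPM in littermates (-0.61 ± 0.08, adjusted p = 0.0146). In all 3 genes the groups were apart and the rTg4510 libraries close together. Between Esyt2 and Ptprn2, the condensin gene Ncapg2 stood at 1.90, 3.19, 2.18 and 2.56 CPM in rTg4510, against 4.67, 6.95, 5.58 and 6.34 CPM in littermates (-1.26 ± 0.26, adjusted p = 0.443). D430020J02Rik, a noncoding gene in the same gap named after its values were seen, averaged 4.27 ± 1.80 CPM in rTg4510 libraries and 4.28 ± 1.10 in littermates (SD, n = 4 each; -0.01 ± 0.31), with overlapping groups. On the other flank, Vipr2, which encodes a receptor for vasoactive intestinal peptide, stood at 4.48, 5.16, 3.54 and 4.81 CPM in rTg4510, against 2.09, 0.977, 0.868 and 1.52 CPM in littermates (1.70 ± 0.34, adjusted p = 0.374). Neither Ncapg2 nor Vipr2 passed over all genes, and in neither did the groups overlap. Of the genes farther out on either side, Zfp386 (0.12 ± 0.14) and Rapgef5 (0.19 ± 0.21) had overlapping groups.

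Of the other genes of the transgenes, Mapt, the mouse tau gene, stood at 652, 674, 621 and 639 CPM in rTg4510, against 580, 559, 604 and 621 CPM in littermates. The groups touched without overlapping, with a log2 fold change of 0.13 ± 0.06 (adjusted p = 0.956, edgeR). Whether reads of the human transgene were counted for Mapt was not tested. Fgf14, a sodium channel partner that the tau transgene is known to interrupt, averaged 20.2 ± 4.95 CPM in rTg4510 libraries and 27.4 ± 2.36 in littermates (SD, n = 4 each; -0.44 ± 0.16, adjusted p = 0.945). Camk2a, a kinase of excitatory synapses whose promoter drives the activator, averaged 5264 ± 447 CPM in rTg4510 libraries and 5542 ± 276 in littermates (-0.07 ± 0.18), and its sign turned with the replicate code as a block (0.16).

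The count of 5 genes became 9 without rTg4510 F3, 36 without the neighbouring-tissue libraries and 0 without the 3 libraries highest in Ttr, a fit that leaves 2 littermates. In that last fit Prnp still had a log2 fold change of 1.70 ± 0.25 (adjusted p = 0.716, edgeR). Prnp, Slc35f1, Esyt2 and Wdr60 were called in 22 of the 24 alternative fits, and Ptprn2 in 15.

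**Figure D1:**
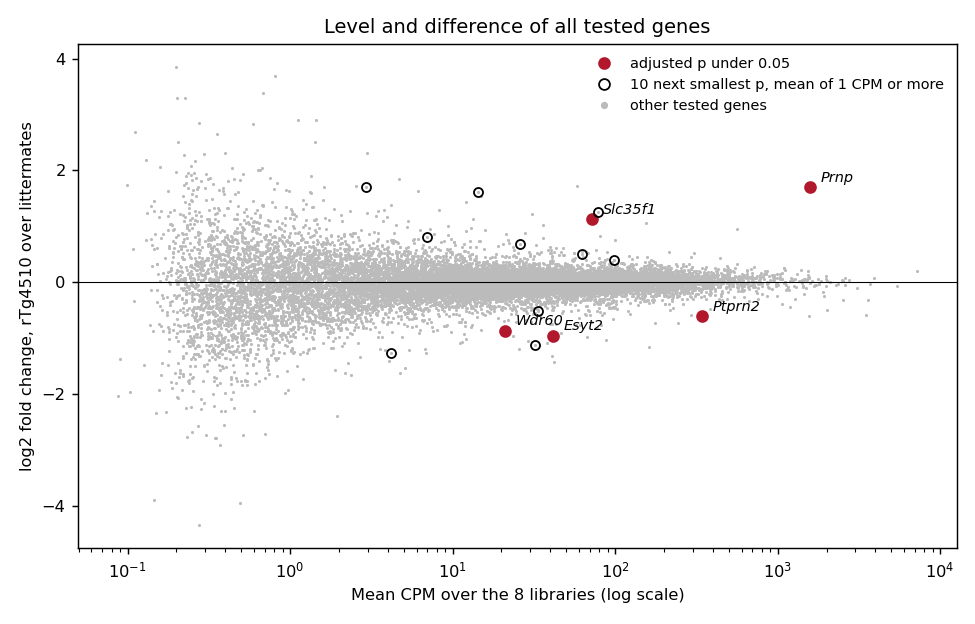
Mean level over the 8 libraries (CPM, log scale) against the log2 fold change of rTg4510 over littermates for all 16618 tested genes; filled circles are the 5 called genes and open circles the 10 with the next smallest p and a mean of at least 1 CPM. Most genes lie close to 0, the cloud narrows with level, and Prnp stands alone at 1583 CPM.

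Across all genes the contrast was narrow. The median log2 fold change was -0.0014 and 49.8% of genes were positive. An unadjusted p under 0.05 was found for 871 genes (5.24%), against 831 if p-values were uniform, 435 of them higher (2.62%) and 436 lower (2.62%) in rTg4510. The groups did not overlap for 647 genes (3.89%), of which 361 were higher (2.17%) and 286 lower (1.72%). Among the 14361 genes with a mean of at least 1 CPM, the 95% interval of the log2 fold change had a median half-width of 0.314. For 12223 of these genes (85.1%) the whole interval lay within 1 log2 unit of no difference, and for 8294 (57.8%) within 0.5. Precision fell with level, and the median half-width was 1.87 below 1 CPM, 0.663 from 1 to 10 CPM and 0.266 from 10 to 100 CPM. Only 110 genes at or above 1 CPM had a log2 fold change beyond 1 in size, and 800 (5.57%) one beyond 0.5.

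The 10 genes with the next smallest p were Car4, Itgb2, Npnt, Blnk, Lrp12, Vipr2, Ncapg2, Ephb2, Pde4b and Syndig1, none of which passed. Car4, a carbonic anhydrase anchored outside the cell, came closest. It stood at 109, 86.4, 132 and 113 CPM in rTg4510, against 45.05, 44.4, 40.3 and 54.6 CPM in littermates (1.26 ± 0.19, adjusted p = 0.0522, edgeR). The groups were well apart, and the gene was called in 8 of the 24 alternative fits. Itgb2, the beta chain of the leukocyte integrins that microglia carry, stood at 9.53, 9.18, 9.35 and 7.40 CPM in rTg4510, against 4.74, 5.07, 6.16 and 4.29 CPM in littermates (0.81 ± 0.15, adjusted p = 0.218). Blnk, an adaptor of immunoreceptor signalling, stood at 29.0, 15.6, 21.2 and 20.3 CPM in rTg4510, against 5.50, 7.45, 7.75 and 7.46 CPM in littermates (1.62 ± 0.32, adjusted p = 0.358). Every rTg4510 library exceeded every littermate library for both genes, by the least in rTg4510 M3 for Itgb2 and in rTg4510 F3 for Blnk. Npnt, a matrix ligand of integrins, stood at 20.3, 28.6, 14.0 and 18.2 CPM in rTg4510, against 35.6, 44.9, 50.7 and 44.3 CPM in littermates (-1.11 ± 0.21, adjusted p = 0.343).

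In each of the remaining 4 of these genes the groups were apart. Ephb2, a receptor tyrosine kinase for ephrins that interacts with glutamate receptors, averaged 27.4 ± 2.16 CPM in rTg4510 libraries and 39.3 ± 6.08 in littermates (SD, n = 4 each; -0.52 ± 0.11). Syndig1, a transmembrane protein of excitatory synapses, averaged 31.9 ± 3.88 CPM in rTg4510 libraries and 19.9 ± 2.79 in littermates (0.68 ± 0.15). Pde4b, a phosphodiesterase that degrades cyclic AMP, averaged 112 ± 13.3 CPM in rTg4510 libraries and 85.0 ± 4.62 in littermates (0.39 ± 0.08). Lrp12, a member of the lipoprotein receptor family, averaged 73.0 ± 5.19 CPM in rTg4510 libraries and 51.3 ± 6.54 in littermates (0.51 ± 0.10). Adjusted p was 0.374 for Lrp12 and 0.443 for the other 3 (edgeR).

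**Figure D2:**
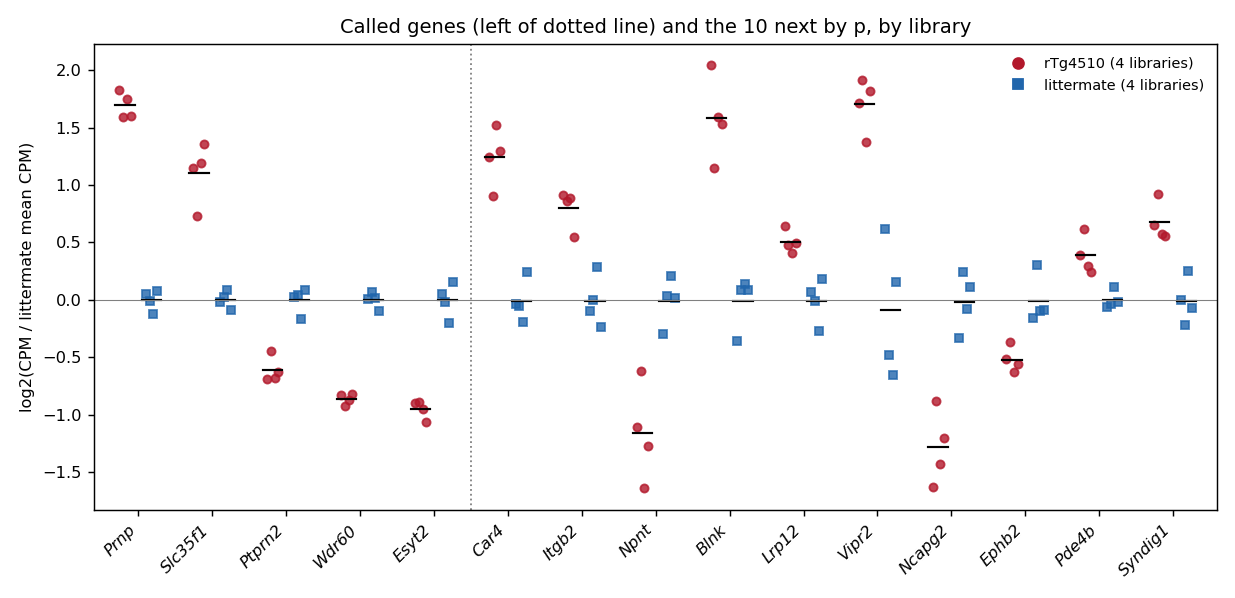
Log2 ratio of each library's CPM to the mean CPM of littermates for the 5 called genes (left of the dotted line) and the 10 with the next smallest p; circles are rTg4510 libraries, squares littermates and bars the mean of the log2 ratios in each group of 4. The groups are apart in all 15 genes, with Prnp, Vipr2, Blnk, Car4 and Slc35f1 more than 1 above littermates and Ncapg2 and Npnt more than 1 below.

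Gene lists are described next by their counts and medians, beside the figures over all genes given above. No gene of a list was called unless it is said. Without the neighbouring-tissue libraries, 3.83% of all genes were higher and 3.76% lower at an unadjusted p under 0.05. Without the libraries highest in Ttr, 1.75% were higher and 1.79% lower. With 1 compared library left out, the shares ran from 1.93% to 2.8% higher and from 2.1% to 3.2% lower. List counts from these fits are to be read beside these shares. Among the list genes named below that are not among the 15 above, Arntl and Pmaip1 had an adjusted p of 0.443 and all others one of at least 0.758 (edgeR). Of 81 lists, 32 kept the sign of their median under all 24 alternative fits, and signs that turned are given for the lists where the sign matters. In bulk tissue, fewer cells of a type and less RNA per cell cannot be told apart. Microglial, complement and antigen presentation lists lay above 0. Complement is a cascade of proteins that tags synapses and debris for removal by microglia, and in mouse brain its first component C1q is made by microglia and C4 mainly by other cells. Of 23 complement components and receptors tested, 18 were positive, 7 were higher at an unadjusted p under 0.05 and 0 lower, with a median log2 fold change of 0.21. C4b, which encodes C4, stood at 132, 22.1, 107 and 98.3 CPM in rTg4510, against 33.1, 23.4, 19.8 and 31.7 CPM in littermates (1.73 ± 0.42). In 3 rTg4510 libraries it was above all littermates, and in rTg4510 F3 it lay within the littermate range. C1qb, a chain of C1q, stood at 54.7, 45.9, 56.3 and 53.4 CPM in rTg4510, against 30.6, 33.7, 41.7 and 31.6 CPM in littermates (0.61 ± 0.16), with the groups apart. C1qa averaged 74.9 ± 10.6 CPM in rTg4510 libraries and 50.9 ± 5.60 in littermates (SD, n = 4 each; 0.56 ± 0.17). The number of higher complement genes was 4 without the libraries highest in Ttr. Leaving out single libraries moved the list median between 0.13 (without littermate M3) and 0.29 (without littermate F3).

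Homeostatic microglia genes, which mark surveying microglia, were positive in 13 of 14 (median 0.17), with 2 higher at an unadjusted p under 0.05. Csf1r, the receptor for the microglial survival factor, stood at 151, 135, 139 and 138 CPM in rTg4510, against 101, 104, 155 and 108 CPM in littermates (0.27 ± 0.14). Littermate M2 alone overlapped the rTg4510 libraries. The number of higher genes was 1 without rTg4510 F2 or F3 or littermate F1 or F3, 4 without littermate M2 or without the neighbouring-tissue libraries, and 0 without those highest in Ttr. The list median was 0.07 without rTg4510 F3 and 0.24 without littermate M2. Disease-associated microglia genes, which mouse microglia raise around protein deposits, were positive in 21 of 27 (median 0.16), 7 of them at an unadjusted p under 0.05, against 1 lower. Tyrobp, the signalling adaptor of the lipid receptor Trem2, stood at 18.8, 12.2, 18.1 and 14.9 CPM in rTg4510, against 7.07, 9.91, 12.5 and 9.08 CPM in littermates (0.73 ± 0.22). Igf1, a growth factor of microglia and some neurons, averaged 12.9 ± 1.32 CPM in rTg4510 libraries and 9.41 ± 1.43 in littermates (0.45 ± 0.15). Cd52, a small surface glycoprotein, averaged 1.82 ± 1.01 CPM in rTg4510 libraries and 0.693 ± 0.237 in littermates (1.39 ± 0.47). The gene lower at an unadjusted p under 0.05 was Fth1, the heavy chain of the iron store ferritin, at 2248 ± 351 CPM in rTg4510 libraries and 2792 ± 251 in littermates (-0.31 ± 0.11). The number of higher disease-associated genes was 12 without the neighbouring-tissue libraries and 3 without those highest in Ttr. Without rTg4510 M1 the disease-associated median was 0.11, and without littermate F1 it was 0.31.

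Antigen presentation genes were mostly above 0. Of 17 class I and peptide-loading genes, 15 were positive (median 0.15) and 3 were higher at an unadjusted p under 0.05, a count of 1 without rTg4510 F3 or M3 or littermate M3. B2m, the light chain of class I molecules, averaged 83.1 ± 10.6 CPM in rTg4510 libraries and 64.5 ± 7.76 in littermates (SD, n = 4 each; 0.36 ± 0.12), and H2-D1, a heavy chain with near-identical relatives, had 0.38 ± 0.14. All 11 class II genes had a positive log2 fold change (median 0.41), but only Ctss, the cathepsin that trims the class II invariant chain, had an unadjusted p under 0.05 (0.58 ± 0.17). Most of these genes are scarce, and the median was 0.11 without rTg4510 F3. Cd74, the invariant chain itself, averaged 4.03 ± 0.774 CPM in rTg4510 libraries and 2.47 ± 1.26 in littermates (0.70 ± 0.36). Interferon response genes were positive in 21 of 34 with none at an unadjusted p under 0.05 in either direction, and their median of 0.14 turned to -0.005 without rTg4510 M1. Chemokines and cytokines (15 of 25 positive, median 0.08), genes of the NF-kB and Toll-like receptor pathway (20 of 31, 0.05) and cytosolic nucleic acid sensors (8 of 20, -0.07) stood nearer to 0. The sign of the NF-kB median turned without the libraries highest in Ttr (-0.04), and that of the sensors without littermate F3 (0.05).

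Reactive astrocyte genes lay above 0 and genes of astrocyte identity slightly below. Of 24 genes that astrocytes raise in many kinds of injury, 16 were positive (median 0.23), 4 higher and 0 lower at an unadjusted p under 0.05. Aspg, an asparaginase that reactive astrocytes express, stood at 10.9, 4.22, 7.82 and 6.33 CPM in rTg4510, against 3.93, 3.26, 2.55 and 3.88 CPM in littermates (1.10 ± 0.27), with the groups apart. Gfap, the intermediate filament of astrocytes, stood at 1243, 213, 686 and 810 CPM in rTg4510, against 447, 386, 282 and 408 CPM in littermates (0.95 ± 0.41). In 3 rTg4510 libraries Gfap was above all littermates, and in rTg4510 F3 it was below all of them. S100a10, an annexin partner, had 0.49 ± 0.13. The count of higher genes was 8 without the neighbouring-tissue libraries. Without littermate M2 the median was 0.14 and without littermate F3 0.36. Of 22 identity and transport genes, 6 were positive (median -0.05) and 0 had an unadjusted p under 0.05 in either direction. Aqp4, the water channel of astrocyte endfeet, averaged 180 ± 28.4 CPM in rTg4510 libraries and 158 ± 17.3 in littermates (0.19 ± 0.11), and the gap junction gene Gja1 had -0.13 ± 0.09. The identity median turned to 0.08 without littermate M2.

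Myelin genes lay below 0. All 20 tested genes of mature oligodendrocytes, the cells that wrap axons in myelin, were negative (median -0.51), and 12 had an unadjusted p under 0.05. Opalin, a membrane protein of myelin, stood at 24.0, 11.9, 19.4 and 19.04 CPM in rTg4510, against 29.2, 27.4, 39.5 and 25.5 CPM in littermates (-0.71 ± 0.21). Mal, a myelin proteolipid, stood at 228, 93.9, 188 and 222 CPM in rTg4510, against 264, 273, 425 and 246 CPM in littermates (-0.72 ± 0.24). The groups did not overlap for either gene, and the extremes were rTg4510 F3 at the low end and littermate M2 at the high end. Cldn11, the tight junction protein of myelin, and Tspan2, a tetraspanin of oligodendrocytes, had -0.72 ± 0.22 and -0.57 ± 0.19. Without the neighbouring-tissue libraries the median was -0.15 and 5 genes had an unadjusted p under 0.05. With 1 library left out at a time the number of genes ran from 4 (without littermate M2) to 15 (without rTg4510 F2), and the median from -0.65 to -0.35. Genes of oligodendrocyte precursors, the dividing cells of the same lineage, had a median of -0.03 over 16 genes, 6 of them positive, and this sign turned to 0.05 without rTg4510 F3. Gpr37, an orphan receptor of oligodendrocytes, had -0.55 ± 0.16, with 87.1, 45.1, 73.6 and 72.9 CPM in rTg4510, against 105, 98.5, 111 and 94.0 CPM in littermates.

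Endothelial and pericyte genes, which mark brain vessels, were negative in 24 of 27 (median -0.15) with 4 lower at an unadjusted p under 0.05. Flt1, a receptor for vascular endothelial growth factors, stood at 60.4, 64.7, 63.4 and 64.6 CPM in rTg4510, against 79.1, 68.0, 94.9 and 68.8 CPM in littermates (-0.30 ± 0.10), with the groups apart. Kdr, the other main receptor of these factors in vessels, averaged 18.7 ± 4.73 CPM in rTg4510 libraries and 24.5 ± 3.06 in littermates (SD, n = 4 each; -0.39 ± 0.16). The number of lower vascular genes was 1 without littermate F1 and 6 without rTg4510 M1. The vascular median was -0.07 without littermate M2 and -0.26 without rTg4510 F3. Meningeal fibroblast genes (0.20) and border macrophage genes (0.25) had positive medians that fell below 0 without the neighbouring-tissue libraries (-0.30 and -0.02).

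**Figure D3:**
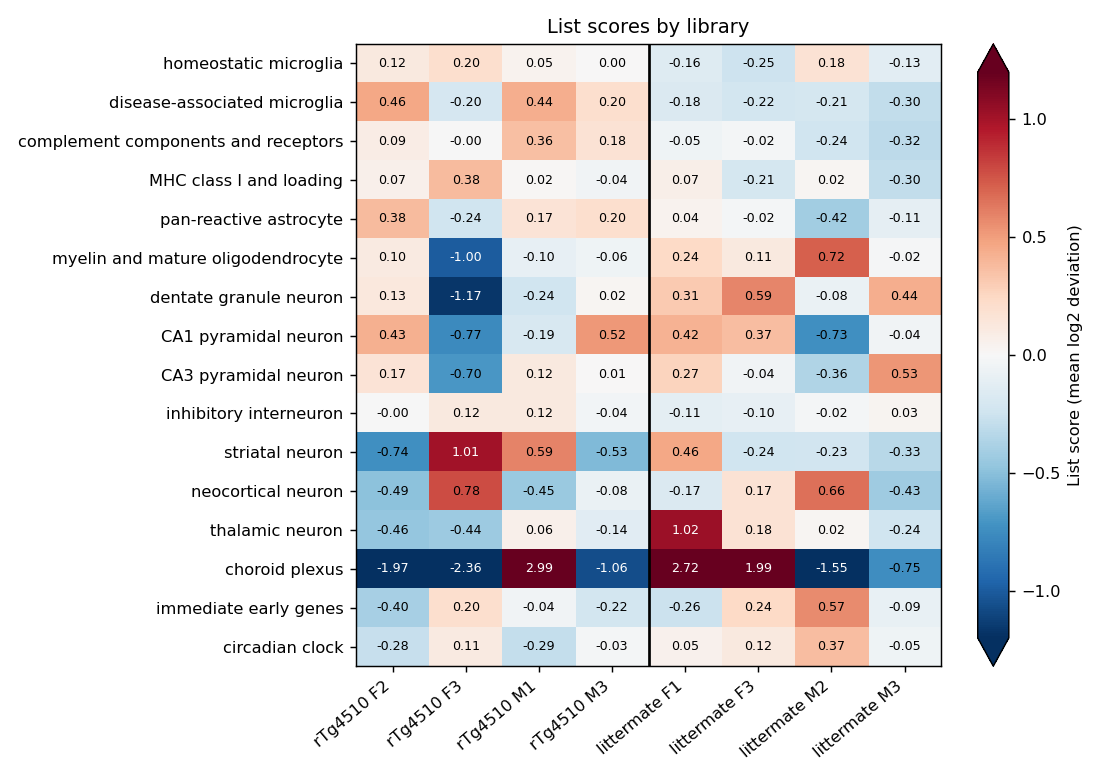
List score by library, the mean log2 deviation of a list's genes from their average over the 8 libraries of the comparison. Red is above and blue below that average, with rTg4510 libraries left of the black line and littermates right of it. The disease-associated and complement scores are above 0 in 3 and about 0 or below in 1 of the rTg4510 libraries (F3), which also holds the lowest myelin (-1.003), dentate (-1.17) and CA1 (-0.77) and the highest striatal (1.01) scores.

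Neuronal lists were examined by hippocampal field. Dentate granule neurons receive the main cortical input of the hippocampus, CA3 neurons receive theirs from the dentate gyrus, and CA1 neurons form the output. Of 16 dentate genes, 12 were negative (median -0.31), 5 lower and 1 higher at an unadjusted p under 0.05. Npnt, given above, was among the 5 lower and the only 1 of the 16 with the groups apart. The number of lower dentate genes was 7 without rTg4510 F2 or littermate M2, 2 without any one of rTg4510 M1 and littermates F1, F3 and M3, and 1 without the libraries highest in Ttr. The median was -0.56 without littermate M2 and -0.17 without littermate F3. Stxbp6, a regulator of membrane fusion, stood at 48.9, 87.4, 39.6 and 44.4 CPM in rTg4510, against 85.6, 99.8, 81.6 and 93.3 CPM in littermates (-0.71 ± 0.21). In this gene rTg4510 F3 was the one rTg4510 library that reached littermate levels, the opposite of its place in the dentate list as a whole. Of 11 CA3 genes, 9 were negative (median -0.25), with Bok, a BCL2-family protein, at -0.43 ± 0.15. The 11 CA1 genes had a median of 0.06, with 8 positive and 0 at an unadjusted p under 0.05. Its sign turned without rTg4510 M3 (-0.05). Wfs1, the endoplasmic reticulum protein that marks CA1, averaged 193 ± 27.5 CPM in rTg4510 libraries and 148 ± 59.0 in littermates (SD, n = 4 each; 0.39 ± 0.30). Without the neighbouring-tissue libraries the dentate median was -0.32 with 8 of 16 genes lower at an unadjusted p under 0.05, the CA3 median was -0.29 with 5 of 11 and the CA1 median was -0.002 with 1 of 11. The background in that fit was 3.83% of genes higher and 3.76% lower.

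Inhibitory interneuron genes were positive in 17 of 24 (median 0.14) with none at an unadjusted p under 0.05. Gad2, an enzyme of GABA synthesis, stood at 181, 183, 253 and 174 CPM in rTg4510, against 158, 150, 147 and 159 CPM in littermates (0.37 ± 0.18). Sst, the neuropeptide somatostatin, stood at 244, 250, 245 and 254 CPM in rTg4510, against 279, 266, 356 and 328 CPM in littermates (-0.31 ± 0.14). Their groups were apart in opposite directions. Among 20 genes of neurogenesis (median -0.05), Tbr1, a transcription factor of newborn and cortical excitatory neurons, stood at 172, 329, 152 and 189 CPM in rTg4510, against 70.1, 96.9, 165 and 72.1 CPM in littermates (1.06 ± 0.33). Littermate M2 alone reached the rTg4510 range, and the highest value was in rTg4510 F3, the pair of libraries with the highest neocortical scores (0.785 and 0.66). Stmn2, a stathmin that regulates microtubules in growing axons, had 0.24 ± 0.08, with the groups apart. Striatal genes (median 0.31, 14 of 16 positive) and neocortical genes (0.16, 8 of 14) turned to -0.10 and -0.10 without the neighbouring-tissue libraries.

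Immediate early genes, which neurons switch on within minutes of firing, were negative in 22 of 30 (median -0.24), with 3 lower and 1 higher at an unadjusted p under 0.05. Arc, which regulates AMPA receptors at active synapses, stood at 73.4, 130, 121 and 76.1 CPM in rTg4510, against 83.7, 255, 430 and 123 CPM in littermates (-1.15 ± 0.47). The groups overlapped and littermate M2 was highest. Fosl2, a subunit of the transcription factor AP-1, stood at 41.1, 33.0, 31.9 and 45.8 CPM in rTg4510, against 52.4, 54.9, 60.1 and 55.2 CPM in littermates (-0.55 ± 0.18), with the groups apart. The higher gene was Inhba, an activin subunit (0.74 ± 0.34). The number of lower genes ran from 2 (without rTg4510 F2 or M3 or littermate F3) to 9 (without rTg4510 F3), and the median from -0.35 to -0.09.

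Circadian clock genes lay on both sides of littermate levels. In the mammalian clock the activators Clock and Arntl (also called Bmal1) switch on Per, Cry and other repressor genes through the E-box motif CACGTG, and the output factors Dbp, Tef and Hlf act through the D-box motif TTATGTAA. Arntl and its targets peak at opposite phases of the day. Of 20 clock genes tested, 1 was higher and 6 were lower at an unadjusted p under 0.05 (median -0.25, 14 negative). The higher one was Arntl, at 52.7, 53.5, 49.97 and 38.0 CPM in rTg4510, against 29.3, 32.2, 31.4 and 32.5 CPM in littermates (0.63 ± 0.14, adjusted p = 0.443, edgeR). The groups were apart, with rTg4510 M3 nearest to littermates.

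The lower genes were Per3, Per1, Tef, Dbp, Ciart and Bhlhe41, of which Dbp, Ciart and Bhlhe41 (and Cry1 below) were named after their values were seen. Per3, a period gene, stood at 27.7, 40.7, 23.7 and 36.6 CPM in rTg4510, against 46.6, 56.3, 65.6 and 48.4 CPM in littermates (-0.75 ± 0.22). Per1, a repressor that is also induced by activity, stood at 69.8, 80.6, 75.0 and 105 CPM in rTg4510, against 104, 108, 120 and 117 CPM in littermates (-0.45 ± 0.15). The Per3 groups were apart, and the Per1 groups overlapped through rTg4510 M3 and littermate F1. Ciart, a repressor of the Clock-Arntl pair, stood at 4.17, 12.8, 4.78 and 10.7 CPM in rTg4510, against 11.5, 14.2, 23.02 and 12.8 CPM in littermates (-0.92 ± 0.40). Dbp stood at 36.9, 64.3, 17.5 and 51.2 CPM in rTg4510, against 69.6, 66.2, 96.7 and 57.6 CPM in littermates (-0.77 ± 0.34). For Ciart and Dbp the libraries rTg4510 F2 and M1 were far below all littermates, whereas F3 and M3 were close to or inside their range, and littermate M2 was highest. Tef and Bhlhe41 had -0.30 ± 0.13 and -0.34 ± 0.15. The time of day at sampling is not stated in these sources. The number of lower clock genes was 2 without rTg4510 F2 or M1 or littermate F3 or M2, 2 without the libraries highest in Ttr and 9 without rTg4510 F3.

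**Figure D4:**
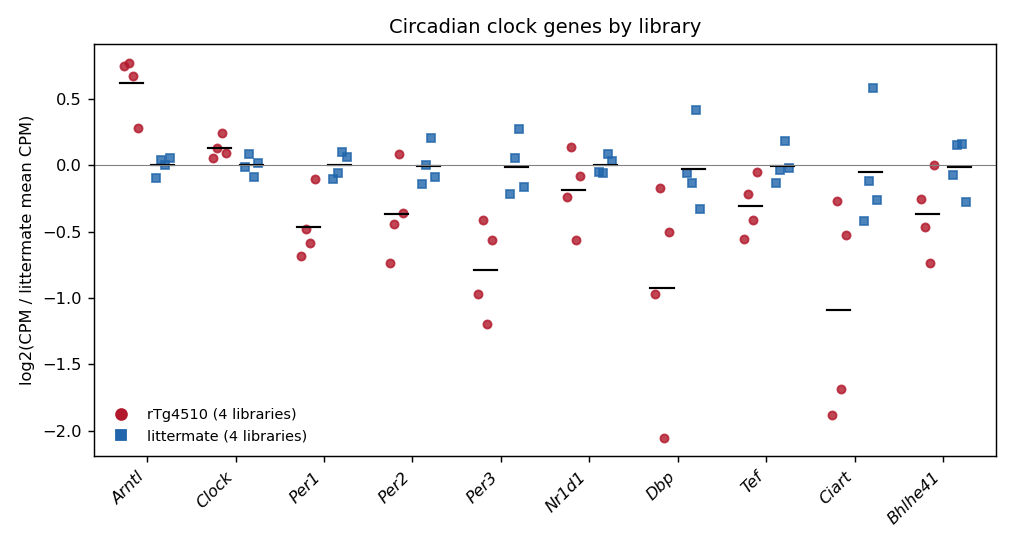
Log2 ratio of each library's CPM to the mean CPM of littermates for 10 clock genes; circles are rTg4510 libraries, squares littermates and bars the mean of the log2 ratios in each group of 4. Arntl lies above 0 in all 4 rTg4510 libraries, Per3 and Per1 lie below 0 in all 4, and Dbp and Ciart spread from near littermate levels to far below them.

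The promoters of 3 lower clock genes are shown because they carry the motifs through which Arntl and the output factors act. Each is the 250 bases before the start of transcription, 5′ to 3′ on the gene's strand, from RefSeq on GRCm38.p6, with E-boxes or D-boxes in capitals. Ciart (chr3:95882229-95882478, minus strand) holds 3 E-boxes, 116, 58 and 44 bases before the start. Per1 (chr11:69098699-69098948, plus strand) holds 1 E-box, 166 bases before the start. The window of the other RefSeq start of Per1 (chr11:69099902-69100151) holds none. Per3 (chr4:151044666-151044915, minus strand) holds 2 D-boxes, 205 and 158 bases before the start.
Ciart: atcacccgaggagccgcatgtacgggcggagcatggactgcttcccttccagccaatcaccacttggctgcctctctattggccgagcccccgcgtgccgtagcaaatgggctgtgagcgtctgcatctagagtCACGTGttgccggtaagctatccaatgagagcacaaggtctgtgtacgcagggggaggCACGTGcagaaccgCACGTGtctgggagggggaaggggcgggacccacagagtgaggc
Per1: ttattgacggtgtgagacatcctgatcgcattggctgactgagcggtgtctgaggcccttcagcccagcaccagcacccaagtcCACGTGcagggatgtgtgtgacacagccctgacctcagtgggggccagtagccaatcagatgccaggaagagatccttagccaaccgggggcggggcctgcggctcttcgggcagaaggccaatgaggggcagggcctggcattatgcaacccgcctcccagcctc
Per3: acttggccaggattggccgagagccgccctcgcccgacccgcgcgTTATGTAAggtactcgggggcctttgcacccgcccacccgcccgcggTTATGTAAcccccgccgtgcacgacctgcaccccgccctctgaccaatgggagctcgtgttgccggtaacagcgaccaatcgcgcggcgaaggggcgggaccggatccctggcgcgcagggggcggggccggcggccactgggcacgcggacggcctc

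Of the clock genes, 17 of 20 matched a window, 5 of these 17 held an E-box in at least 1 of their windows (29.4%; Ciart, Per1, Tef, Bhlhe41 and Cry1) and 1 a D-box (5.88%; Per3). Counted in the same way, 6.86% of all RefSeq genes and 9.31% of the tested genes held the E-box CACGTG, and 0.977% and 0.788% the D-box TTATGTAA, both searched on both strands. Over windows of this length rather than genes, 6.02% held the E-box and 0.819% the D-box. Cry1, with an E-box 60 bases before its start, had no difference in level beyond the spread (-0.005 ± 0.15). Holding the motif thus did not go with a lower level in every gene. Among the lower genes, Ciart, Per1, Tef and Bhlhe41 held an E-box, whereas Dbp (-0.77) and Per3 (-0.75) held none. Dbp held no D-box either. A match in a window is a description and does not show that a factor binds there.

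Synaptic and channel genes lay near 0 as groups. Ionotropic glutamate receptors had a median of -0.01 (8 of 18 positive), postsynaptic scaffolds 0.001 (16 of 32) and presynaptic genes 0.06 (28 of 44). Within them, Grin3a, an NMDA receptor subunit, stood at 65.5, 63.8, 66.4 and 64.7 CPM in rTg4510, against 56.9, 55.3, 43.9 and 57.4 CPM in littermates (0.29 ± 0.10), with the groups apart. Cplx1, a complexin of fast release, averaged 680 ± 59.6 CPM in rTg4510 libraries and 834 ± 115 in littermates (SD, n = 4 each; -0.30 ± 0.12). Doc2b, a calcium sensor of spontaneous release, averaged 45.5 ± 20.3 CPM in rTg4510 libraries and 89.1 ± 38.1 in littermates (-0.97 ± 0.37). GABA receptor subunits were positive in 13 of 16 (median 0.12), with Gabrg3 at 0.54 ± 0.18 and its groups apart, and the median was 0.03 without rTg4510 F3. Potassium channel subunits had none of 87 genes at an unadjusted p under 0.05 (median 0.04). Voltage-gated calcium channel subunits had a median of 0.06 over 25 genes, with Cacna1b, the pore of N-type channels, at 0.28 ± 0.12.

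Protocadherins and cadherins were positive in 63 of 91 (median 0.14), with 7 higher and 1 lower at an unadjusted p under 0.05. The count of higher genes was 3 without rTg4510 F3 or M3. The clustered protocadherins give neurons a surface identity, and their genes share exons and near-identical sequence, so counts can be split between them. Pcdhga9, Pcdhb17 and Pcdhga7, members of these clusters, had 0.60 ± 0.20, 0.32 ± 0.11 and 0.51 ± 0.21, each with the groups apart. The lower gene was Pcdh15, a protocadherin known for mechanosensory hair bundles, at 13.5, 19.6, 16.7 and 15.7 CPM in rTg4510, against 20.3, 22.1, 24.7 and 20.4 CPM in littermates (-0.42 ± 0.14). Without the neighbouring-tissue libraries 2 genes of the list were higher and 5 lower, and the median was 0.04. Semaphorins and plexins, guidance molecules of axons, had a median of -0.03 with 3 of 31 higher at an unadjusted p under 0.05, among them Sema3c (0.26 ± 0.09) and Plxnc1 (0.40 ± 0.14), a count of 1 without littermate F1 and 0 without the libraries highest in Ttr. Among Eph receptors and ephrins, 14 of 22 were negative (median -0.13) and Ephb2 was the gene at an unadjusted p under 0.05.

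Genes around tau itself differed little. Tubulins had a median of 0.02 (7 of 14 positive), microtubule-associated proteins and stathmins 0.02 (16 of 27), kinesins and dyneins -0.01 (28 of 57) and neurofilaments -0.01 (2 of 5). Tau kinases and phosphatases were positive in 28 of 39 (median 0.05), a median that was -0.03 without rTg4510 F3. Ppp2cb, a catalytic subunit of the phosphatase that removes phosphate from tau, averaged 90.6 ± 3.79 CPM in rTg4510 libraries and 81.1 ± 3.43 in littermates (SD, n = 4 each; 0.16 ± 0.07). Gsk3b, a kinase of tau, averaged 253 ± 11.7 CPM in rTg4510 libraries and 233 ± 15.3 in littermates (0.12 ± 0.07). App, the amyloid precursor, averaged 2062 ± 125 CPM in rTg4510 libraries and 1896 ± 87.1 in littermates (0.12 ± 0.07), in a list with a median of 0.02 (12 of 18 positive).

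Genes that handle misfolded and degraded protein showed small differences. Cytosolic heat shock chaperones had a median of 0.04, with 3 of 35 higher and 0 lower at an unadjusted p under 0.05. Hspa4l, a nucleotide exchange factor for Hsp70, stood at 112, 107, 114 and 117 CPM in rTg4510, against 96.6, 90.2, 90.1 and 90.3 CPM in littermates (0.29 ± 0.10). Hsp90aa1, the inducible Hsp90, averaged 924 ± 64.0 CPM in rTg4510 libraries and 798 ± 50.6 in littermates (SD, n = 4 each; 0.21 ± 0.08). Both had groups apart. The count of higher chaperones was 1 without rTg4510 M1 or littermate M2 and 5 without rTg4510 F3. In the unfolded protein response (median 0.05, 20 of 32 positive), Sel1l, an adaptor that exports misfolded proteins from the endoplasmic reticulum, stood at 236, 228, 236 and 212 CPM in rTg4510, against 202, 193, 186 and 192 CPM in littermates (0.24 ± 0.06). The groups were apart and tight, and the sensor kinase Eif2ak3 had 0.31 ± 0.11. The sign of this median turned without rTg4510 M1 (-0.04). Proteasome subunits had a median of 0.02 over 46 genes, with the activator subunit Psme2 at 0.28 ± 0.10. Ubiquitin and autophagy genes were positive in 29 of 36 with a median of 0.07.

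Lysosomal hydrolases and membrane proteins were positive in 36 of 49 (median 0.06), with 6 higher and 0 lower at an unadjusted p under 0.05. Man2b1, a lysosomal mannosidase, stood at 52.4, 52.0, 60.0 and 53.05 CPM in rTg4510, against 46.5, 41.9, 46.7 and 39.5 CPM in littermates (0.32 ± 0.10), with the groups apart. Ctss stood at 104, 72.0, 99.8 and 88.9 CPM in rTg4510, against 57.0, 57.1, 72.6 and 56.8 CPM in littermates (0.58 ± 0.17), with littermate M2 just above the lowest rTg4510 library, F3. Ctsb, a cathepsin, averaged 520 ± 26.0 CPM in rTg4510 libraries and 449 ± 47.0 in littermates (SD, n = 4 each; 0.21 ± 0.08). Ctss is also a microglial marker. The number of higher lysosomal genes was 14 without the neighbouring-tissue libraries, 0 without those highest in Ttr and 3 without littermate F3.

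Genes of energy metabolism differed by small amounts. Nuclear genes of oxidative phosphorylation were negative in 63 of 78, but with a median of -0.05, 5 genes lower at an unadjusted p under 0.05 and none higher. Cox6c, a subunit of cytochrome oxidase, stood at 134, 144, 137 and 144 CPM in rTg4510, against 152, 145, 198 and 162 CPM in littermates (-0.24 ± 0.09). Littermate M2 was highest, and without the neighbouring-tissue libraries the median was 0.01. The number of lower genes was 1 without littermate M2 or without the neighbouring-tissue libraries, and 10 without those highest in Ttr. Cytosolic ribosomal proteins had a like shape, with 70 of 79 negative and a median of -0.08 that was 0.01 without littermate M2. Glycolysis genes had a median of 0.02, with Pfkp, the platelet phosphofructokinase, at 326 ± 42.3 CPM in rTg4510 libraries and 270 ± 14.9 in littermates (SD, n = 4 each; 0.27 ± 0.09). Slc2a1, the glucose transporter of the blood-brain barrier, had -0.26 ± 0.12. Cholesterol synthesis and uptake genes had a median of 0.03, with 3 of 28 higher at an unadjusted p under 0.05, among them the sterol carrier Stard4 (0.34 ± 0.11) and Srebf2, the transcription factor of sterol synthesis (0.14 ± 0.06). That count was 1 or 2 with any single library left out and 0 without those highest in Ttr. Lipid droplet and sterol efflux genes (median 0.03, 25 genes) and targets of the oxidative stress factor NRF2 (0.02, 32 genes) had none at an unadjusted p under 0.05. Iron handling genes were negative in 12 of 16 (median -0.09).

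Spliceosome components and SR proteins, which assemble on pre-mRNA and choose splice sites, were negative in 50 of 67 (median -0.07), with 6 lower and 1 higher at an unadjusted p under 0.05. Prpf39, a factor of the U1 particle, stood at 37.0, 44.4, 35.7 and 36.2 CPM in rTg4510, against 47.7, 50.9, 53.4 and 44.6 CPM in littermates (-0.36 ± 0.10). U2af1, which recognises the end of introns, stood at 40.7, 38.3, 37.2 and 40.7 CPM in rTg4510, against 47.6, 45.05, 45.9 and 46.8 CPM in littermates (-0.24 ± 0.07). The SR proteins Srsf2 and Srsf3 had -0.23 ± 0.07 and -0.22 ± 0.08. The groups were apart for all 4 genes. The median lay between -0.09 and -0.05 with 1 library left out at a time and was -0.08 without the neighbouring-tissue libraries, where 7 genes were lower and 0 higher. Without littermate F1, 4 genes were lower. Translation factors had a median of 0.02 over 61 genes, with Eif2b4, a subunit of the exchange factor eIF2B, at -0.25 ± 0.09. Zinc finger genes named Zfp were evenly divided, with 175 of 352 positive and 7 higher and 12 lower at an unadjusted p under 0.05. Silencers of retroelements, elements that copy themselves by reverse transcription, had a median of -0.03 over 27 genes, with 1 lower.

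Among genes of cell death, Pmaip1, which encodes the proapoptotic protein Noxa, stood at 4.65, 5.10, 5.78 and 6.09 CPM in rTg4510, against 1.57, 1.59, 2.63 and 3.02 CPM in littermates (1.29 ± 0.28, adjusted p = 0.443, edgeR). Hrk, a BH3-only protein of neurons, stood at 106, 63.1, 108 and 136 CPM in rTg4510, against 57.5, 60.2, 46.4 and 68.3 CPM in littermates (0.83 ± 0.26). Pmaip1 had the groups apart, while for Hrk rTg4510 F3 lay inside the littermate range. The 28 BCL2-family and caspase genes had a median of -0.03, with 2 higher and 2 lower at an unadjusted p under 0.05. Targets of p53 had a median of -0.06 (14 of 32 positive). Senescence and cell cycle inhibitor genes had a median of -0.09, with 0 of 16 higher and 1 lower.

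Receptors and carriers outside the synaptic lists showed few differences. Of 77 receptors named Gpr or Adgr, 4 were higher and 2 lower at an unadjusted p under 0.05 (median 0.05). Gpr158, an orphan receptor of hippocampal neurons, stood at 171, 215, 167 and 170 CPM in rTg4510, against 147, 139, 135 and 163 CPM in littermates (0.31 ± 0.09), and Adgrg1, an adhesion receptor, had 0.42 ± 0.13. Htr4, a serotonin receptor, averaged 4.10 ± 2.32 CPM in rTg4510 libraries and 9.38 ± 4.38 in littermates (SD, n = 4 each; -1.199 ± 0.48). Solute carriers had 1 called gene, Slc35f1, among 313, with 4 higher and 7 lower at an unadjusted p under 0.05. Of 14 carbonic anhydrases, Car4 was the gene higher at an unadjusted p under 0.05 and Car2, which oligodendrocytes express, the one lower (-0.33 ± 0.14).

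**Figure D5:**
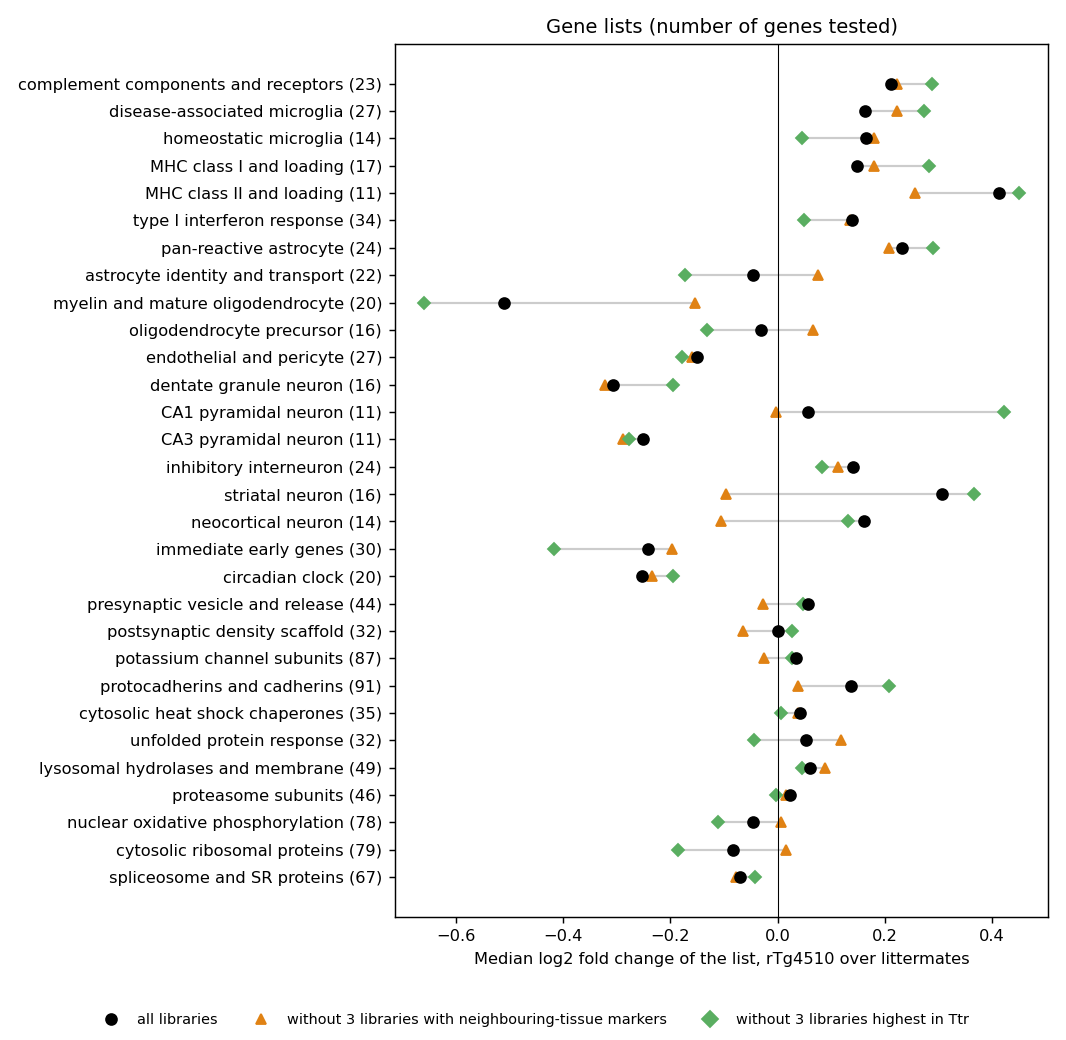
Median log2 fold change of rTg4510 over littermates for 30 gene lists, with the number of genes tested in brackets. Circles are all libraries, triangles the fit without the 3 libraries left out for neighbouring-tissue markers and diamonds the fit without the 3 highest in Ttr. Microglial, complement and antigen presentation lists stay above 0 in all 3 fits and dentate, CA3, clock and spliceosome lists below 0, while myelin runs from -0.66 to -0.15 and the striatal, neocortical and CA1 lists cross 0.

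By position and gene structure the contrast varied little. Medians of the autosomes and X lay between -0.017 (chromosome 14) and 0.028 (X), and the 8 tested genes of Y had a median of -0.075. In windows of 10 neighbouring tested genes, the most with an unadjusted p under 0.05 was 5, in 5 of 15806 windows, and all 5 windows lie on distal chromosome 12 around Esyt2. The 3 tested genes on each side of Slc35f1, Prnp and Car4 had overlapping groups. Over 5 equal groups of genes by exon length, the median log2 fold change ran from -0.034 in the shortest to 0.012 in the longest, and the share of genes with an unadjusted p under 0.05 from 3.97% to 7.002%. Over 5 such groups by GC content of the exons the medians ran from 0.011 in the lowest to -0.023 in the highest. By annotated class, 288 lincRNA genes had a median of -0.13, 262 antisense genes -0.15 and 29 snoRNA genes -0.36, against 0.002 in 14962 protein-coding genes. Genes of these noncoding classes are scarce, and the median over all genes below 1 CPM was -0.10. Medians by annotated class were not taken with libraries left out. Strand was not given for the counting, so antisense genes cannot be told apart from their partners.

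Without the libraries left out for neighbouring-tissue markers, 3 rTg4510 and 3 littermate libraries remain. In that fit 36 of 16742 genes passed (0.215%, edgeR), 17 higher (0.102%) and 19 lower (0.113%). They hold all 5 genes called with all libraries, and 25 of the 36 had an unadjusted p under 0.05 there. Since the 2 libraries were left out for their cell-type markers, genes named from this fit were chosen after values were seen. Complement and microglial genes were among them. C4b (1.93 ± 0.19, adjusted p = 0.000523), C1qb (0.78 ± 0.11, adjusted p = 0.00513), C1qc (0.82 ± 0.15, adjusted p = 0.048) and C1qa (0.73 ± 0.13, adjusted p = 0.0439) rose in that fit, 4 of 23 complement genes. Csf1r (0.45 ± 0.06, adjusted p = 0.00784) rose among the homeostatic genes. Ctss rose (0.78 ± 0.11, adjusted p = 0.00965), as did Blnk (1.80 ± 0.22, adjusted p = 0.00282) and Mpeg1, a pore-forming protein of macrophages (1.02 ± 0.13, adjusted p = 0.00468). Over the microglial, complement and lysosomal lists together, 7 of 107 genes were called, all 7 of them higher.

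Outside the immune lists, Car4 (1.30 ± 0.11, adjusted p = 0.000103), Tbr1 (1.10 ± 0.13, adjusted p = 0.00236) and Hrk (0.91 ± 0.12, adjusted p = 0.0051) rose. Trp73, a p53-family factor of Cajal-Retzius neurons, rose too (1.03 ± 0.16, adjusted p = 0.0209), at 12.7 ± 1.02 CPM in the 3 rTg4510 and 6.24 ± 0.582 CPM in the 3 littermate libraries (SD, n = 3 each). Its levels in the omitted rTg4510 F3 and littermate M2 were 0.342 and 1.24 CPM. Among genes that fell, Npnt had -1.25 ± 0.17 (adjusted p = 0.00468, edgeR) and Stxbp6 -1.07 ± 0.12 (adjusted p = 0.00121). They were the 2 of 16 dentate genes called in that fit. Npy2r, a receptor for neuropeptide Y, had -1.15 ± 0.14 (adjusted p = 0.00256). Pcp4, a calmodulin regulator, fell as well (-0.74 ± 0.12, adjusted p = 0.0192), with 59.6 ± 5.29 CPM in the 3 rTg4510 and 99.8 ± 18.5 CPM in the 3 littermate libraries. Cemip, a protein that degrades hyaluronan, fell (-1.27 ± 0.14, adjusted p = 0.00154), as did Sipa1l2, a synaptic GTPase activator (-0.67 ± 0.06, adjusted p = 0.000523), and Tgfb2, a cytokine of neurons and glia (-0.56 ± 0.09, adjusted p = 0.0231). No myelin, interferon or ribosomal protein gene was among the 36.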

How the data were processed

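Hippocampal polyadenylated RNA was sequenced, and the deposited table holds whole-number read counts per gene symbol for all 12 libraries. Per the submitters' processing notes the tools were STAR and DESeq2 and the build mm10; versions, annotation and strand setting are not stated there, and the authors' counts were used as deposited. The table has 24411 entries, of which 27 are symbols turned into dates by a spreadsheet (0.285% to 0.363% of counts). These were left out of the tests and of the totals used for CPM. The library totals given above include them. Positions, lengths and classes came from the GENCODE M21 annotation, matched by symbol for 15994 of the tested genes, and promoters from RefSeq on GRCm38.p6.

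Groups follow the labels. Genes passed a filter on low counts (edgeR filterByExpr, minimum count 10, minimum total 15), and counts were scaled by the trimmed mean of M values. The edgeR 4.0.16 quasi-likelihood test (R 4.3.3) was fitted with group as the term over all 12 libraries, which share the estimate of spread (9 residual degrees of freedom), and p-values were adjusted by Benjamini-Hochberg over the 16618 genes. Fold changes are log2, rTg4510 over littermates, with SE. The script was tested on simulated data with known changes. No sex term was used because 2 littermate libraries go against their labelled sex. A count of 3 equals 0.0519 to 0.109 CPM at these depths, and such limits cover counting error only. List scores and medians carry no test.

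The genes named are the called genes, the 10 uncalled with the smallest p and a mean of at least 1 CPM, up to 4 members with the smallest p in each list, and the genes of the transgenes and their insertion sites; others are marked in the text. The members and lists were chosen with earlier results of these data known. Alternatives were DESeq2 size factors, no filter or a stricter one (1 CPM in 4 libraries), DESeq2 1.42.0, limma-voom (limma 3.58.1) with and without quality weights, sex terms, a replicate block, the 8 libraries alone, and libraries left out.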

Additional observations from a re-analysis of the deposited data

Results flagged for a closer look

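Among 242 groups of 4 libraries examined, 26 held 1 library far from the other 3. For independent groups the rule would mark about 1 in 20, but these groups are not independent. Many genes mark the same cell types. Trp73, Npy2r, Pcp4 and Tgfb2 were named from the fit without rTg4510 F3 and littermate M2. The count is therefore a description and was not set against chance. Among the 26 groups, littermate M2 stood apart in 8. It was above the other littermates for Csf1r (155 CPM, others 101 to 108), Ctss (72.6), C1qa (59.3), Mal (425) and Cry1 (16.6). It was below them for Aqp4 (132), Grin3a (43.9) and Tgfb2 (28.6 CPM, others 93.9 to 97.3).

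In 7 groups it was rTg4510 F3. Trp73, a marker of Cajal-Retzius neurons, was at 0.342 CPM there and at 11.6 to 13.4 CPM in the other rTg4510 libraries. Npy2r was at 2.79 CPM, against 19.3 to 21.3 CPM in the others, and Car2 at 145 CPM, against 214 to 221. Pcp4 (131 CPM, others 56.0 to 65.7), Gpr158 (215), Stmn2 (435) and Prpf39 (44.4) were higher in F3 than in the rest of its group.

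The library rTg4510 M1, highest in Ttr, was high for Gad2 (253) and Man2b1 (60.0) and low for Cplx1 (591 CPM). Littermate F1 was high for Cd74 (4.34), App (2025), Hspa4l (96.6) and the striatal score (0.464) and low for Blnk (5.50 CPM). Littermate F3 was high for Ephb2 (48.3) and Inhba (5.43 CPM), and rTg4510 M3 was low for Itgb2 (7.40 CPM).

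In the rTg4510 mice given 3TC, libraries outside the contrast, Prnp averaged 2409 ± 631 CPM and Slc35f1 106 ± 8.03 CPM (SD, n = 4), above the littermate ranges of 685 to 785 and 42.7 to 48.0 CPM. The 3 genes that fell were low there too, with Esyt2 at 27.1 ± 4.30, Wdr60 at 14.3 ± 1.90 and Ptprn2 at 265 ± 12.4 CPM (SD, n = 4), all 4 libraries below every littermate library.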

How the results depend on the processing

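Of the 5 called genes, 5 stayed called with DESeq2 size factors (5 genes in all), no filter (6), a stricter filter (5), limma-voom (5), labelled sex (7) and exchanged sex (5), and 4 with the 8 libraries alone (6). The count was 23 by DESeq2's Wald test and 15 by limma-voom with quality weights, both holding all 5. It was 36 without the neighbouring-tissue libraries. With 1 library left out it ran from 4 to 9, with 9 without rTg4510 F3 and 8 without rTg4510+3TC F2. Without the 3 libraries highest in Ttr, which leaves 2 littermates, the count was 0 by edgeR (604 at an unadjusted p under 0.05). With the replicate code of the labels as a block it was 0 by edgeR (643 at an unadjusted p under 0.05). rTg4510 and littermates share 2 codes, and libraries of the same code did not deviate together (correlation -0.246 for F3 and 0.0164 for M3). Both pairs hold a littermate library whose sex-linked genes go against its label. These values therefore cannot show whether the codes pair the libraries.

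Over 2568 values of 107 named genes under the alternatives, 7 changed sign. Camk2a had 0.16 under the replicate block. Cry1 had 0.0098 by limma-voom and 0.088 without the neighbouring-tissue libraries, and with 1 library left out it ran from -0.11 to 0.12 (above 0 without rTg4510 F2, rTg4510 M3 or littermate M2). Zfp386 ran from -0.0071 (without rTg4510 F2) to 0.19 in the same way. The cause of these changes was not tested. Depth limits genes below 1 CPM, where the median 95% half-width was 1.87.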

Other observations

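Some lists have not been described above. Choroid plexus genes, which mark the tissue that secretes cerebrospinal fluid, were negative in 17 of 20 (median -0.39) with none at an unadjusted p under 0.05, and the median was -2.97 without rTg4510 M1 and 0.45 without littermate F1. Thalamic neuron genes were negative in 12 of 14 (median -0.45), and this was -0.12 without littermate F1, the library with the highest thalamic score (1.02). Mitochondrial ribosomal proteins (median -0.02 over 77 genes), V-ATPase subunits, which acidify lysosomes and synaptic vesicles (0.08 over 20), and neuropeptides and growth factors (0.03 over 32) lay near 0. Histone genes had a median of -0.04 over 30 genes, 1 higher and 1 lower at an unadjusted p under 0.05. Of 919 genes with RIKEN clone names, 14 were higher and 20 lower, and of 366 predicted genes 2 were higher and 5 lower.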
